A study of Mus musculus with 9 samples.

Results

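The genes described here encode the blood transcription factors that assemble around GATA1 and SCL: Gata1, Gata2, Zfpm1 (FOG1), Tal1 (SCL), Lyl1, Lmo2, Ldb1, Gfi1b, Nfe2 and Klf1. They were taken by name, and every array probe set annotated to exactly 1 of them was used, which gave 12 of 45037 probe sets for the 10 genes. Gata2 and Zfpm1 had 2 probe sets each and the other 8 genes had 1. RNA came from L8057, a mouse megakaryocytic leukaemia cell line, and was hybridised to 9 single-channel oligonucleotide arrays in 3 groups of 3, CBFb_KD, Ring1b_KD and Control. In CBFb_KD cells a lentivirus delivered a hairpin RNA targeting CBFb, in Ring1b_KD cells one targeting Ring1b, and Control cells received the empty vector. All 3 groups went through infection, then 48 h later puromycin together with 50 nM of the phorbol ester TPA, which drives maturation of the line, and were harvested after a further 72 h, at the end of 3 days of TPA. No untreated cells were analysed here, so every value belongs to TPA-treated cells of 1 line. The submitters describe biological triplicates without saying how the cultures were separated, so each p-value reflects only array-to-array spread, which may be technical.

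GATA1 and GATA2 are zinc finger proteins that bind the same short DNA motif; GATA2 is known for early progenitors and mast cells, and GATA1 for megakaryocytes, red cells and mast cells. FOG1 binds GATA1 and is needed for megakaryocyte development. SCL, or its close relative LYL1, pairs with an E protein such as the product of Tcf3 to bind an E-box, and LMO2 and LDB1 bridge that pair to a GATA factor on the same stretch of DNA. GFI1B is a repressor that recruits the demethylase KDM1A, NFE2 pairs with a small MAF protein to drive late platelet genes, and KLF1 activates red cell genes. CBFb is the partner subunit of the RUNX proteins, which are known to work beside GATA1 in megakaryocytes, and Ring1b, encoded by Rnf2, is the ubiquitin ligase of Polycomb repressive complex 1 (PRC1). The study's title concerns recruitment of PRC1 by core binding factors, so the comparisons ask how the transcripts of this factor network stood when either protein was targeted.

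The knockdowns were seen at the RNA level. Cbfb was lower in CBFb_KD than in Control by a log2 difference of -3.17 (limma adjusted p = 2.6e-09), and 3 of the 5 Rnf2 probe sets were lower in Ring1b_KD, the brightest by -1.67 (limma adjusted p = 2.11e-06). Arrays of 1 group correlated at 0.995 to 0.997 and arrays of different groups at 0.986 to 0.994 over all probe sets other than controls. Of 11 megakaryocyte markers 9 were measured, and Gp6 and Vwf, which encode the collagen receptor and von Willebrand factor, lay below 6.58, the median of all probe set means, on every array. The summed signal of the 9 markers, on the log2 scale, was 15.12 to 15.14 in CBFb_KD, 14.02 to 14.94 in Ring1b_KD and 14.46 to 14.81 in Control. Most of that sum was Pf4, with a mean of 14.5 over the 9 arrays against 11.6 for Itga2b, the next brightest. Values below are log2 signals after quantile normalization, differences are between group means with the standard error (SE) of the limma fit, and a probe set was called at an adjusted p under 0.05, adjusted over all 45037 probe sets.

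Upstream promoter sequence helps to place the DNA motifs of these factors. RefSeq start sites on the GRCm38.p6 mouse assembly gave 12 windows of 250 bases for 8 of the 10 genes. Windows were searched on both strands for the RUNX letters TGTGGT or else TGCGGT, the GATA letters AGATAA or else TGATAA or else AGATAG or else TGATAG, and the E-box forms CAGATG or else CAGGTG. No matches overlapped in the 3 windows printed. Those printed are of Lyl1, whose signal differed most among the groups, of Tal1, its relative that also rose with CBFb reduced, and of Klf1, which was not called in any comparison. Capitals mark the matches, and each runs 5′ to 3′ towards the start site.
Lyl1, plus strand, chr8:84701207-84701456: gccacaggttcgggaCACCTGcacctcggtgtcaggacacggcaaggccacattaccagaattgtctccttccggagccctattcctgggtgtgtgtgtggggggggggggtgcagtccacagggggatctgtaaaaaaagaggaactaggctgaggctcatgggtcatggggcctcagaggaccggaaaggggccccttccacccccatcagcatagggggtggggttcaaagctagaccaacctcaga
Tal1, plus strand, chr4:115056176-115056425: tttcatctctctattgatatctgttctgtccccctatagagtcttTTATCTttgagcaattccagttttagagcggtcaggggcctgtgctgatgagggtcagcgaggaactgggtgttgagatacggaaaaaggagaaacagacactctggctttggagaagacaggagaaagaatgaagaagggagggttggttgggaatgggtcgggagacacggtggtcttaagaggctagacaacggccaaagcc
Klf1, plus strand, chr8:84901732-84901981: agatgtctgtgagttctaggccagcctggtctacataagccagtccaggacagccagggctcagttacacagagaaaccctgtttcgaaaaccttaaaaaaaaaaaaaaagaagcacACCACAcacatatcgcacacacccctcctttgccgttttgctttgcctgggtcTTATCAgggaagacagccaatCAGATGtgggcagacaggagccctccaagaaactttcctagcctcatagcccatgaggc

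The Lyl1 window held 1 E-box match, CAGGTG on the reverse strand, beginning 235 bases before the start site. The Tal1 window printed, the first of 2 for that gene, held 1 GATA match 205 bases before it, and the second window (chr4:115057561-115057810) held no match of any kind. The Klf1 window held a RUNX match 133 bases before the start, a GATA match 80 before and an E-box match 59 before. Whether matches go with calls was not tested. Over the 12 windows of these genes 1 held a RUNX match, 4 a GATA match and 2 an E-box match, against 18.6%, 26.5% and 29.2% of the 32851 windows of all genes. A match is only a run of letters, and letters absent from 250 bases say nothing of more distant elements.

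With CBFb reduced, 4 of the 10 genes were higher than in Control and none was called lower. Lyl1 rose 4.66-fold, and Tal1, Zfpm1 and Ldb1 rose by between 1.40- and 1.45-fold. In probe sets, 5 of 12 were called, all higher, where limma called 9.65% of all probe sets in this comparison, 4.9% higher and 4.76% lower. With Ring1b reduced the calls went both ways: Lyl1 rose 1.76-fold, while Gata2, Lmo2 and Zfpm1 fell by between 1.29- and 1.67-fold, in all 5 of 12 probe sets, 1 higher and 4 lower, against 8.48% of all probe sets, 3.77% higher and 4.71% lower. The knockdowns share the Control arrays, so these 2 counts are not independent. Without Control array 1, Control array 3 or Ring1b_KD array 1 the Ring1b_KD count was 3. Set against each other directly, CBFb_KD was higher than Ring1b_KD at 7 of 12 probe sets and lower at 0, where 13.4% of all probe sets were called, 7.07% higher and 6.33% lower. Of all calls in Ring1b_KD against Control 44.4% were higher, a share that was 15.1% when each array was centred on its median, and between the knockdowns 52.8% were higher in CBFb_KD, a share that was 81.6% with that centring. Arrays of the groups did not overlap at 6 of 12 probe sets in each of the 3 comparisons, where 26.2% of all probe sets did not overlap in CBFb_KD against Control, 29.4% in Ring1b_KD against Control and 29.7% between the knockdowns. A moderated F test over the 3 groups called 8 of 12 probe sets, from 6 genes, where 17.7% of all probe sets were called. The median difference over the 12 probe sets was 0.24 in CBFb_KD and -0.07 in Ring1b_KD, beside -0.01 and 0.01 over all probe sets.

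**Figure D1:**
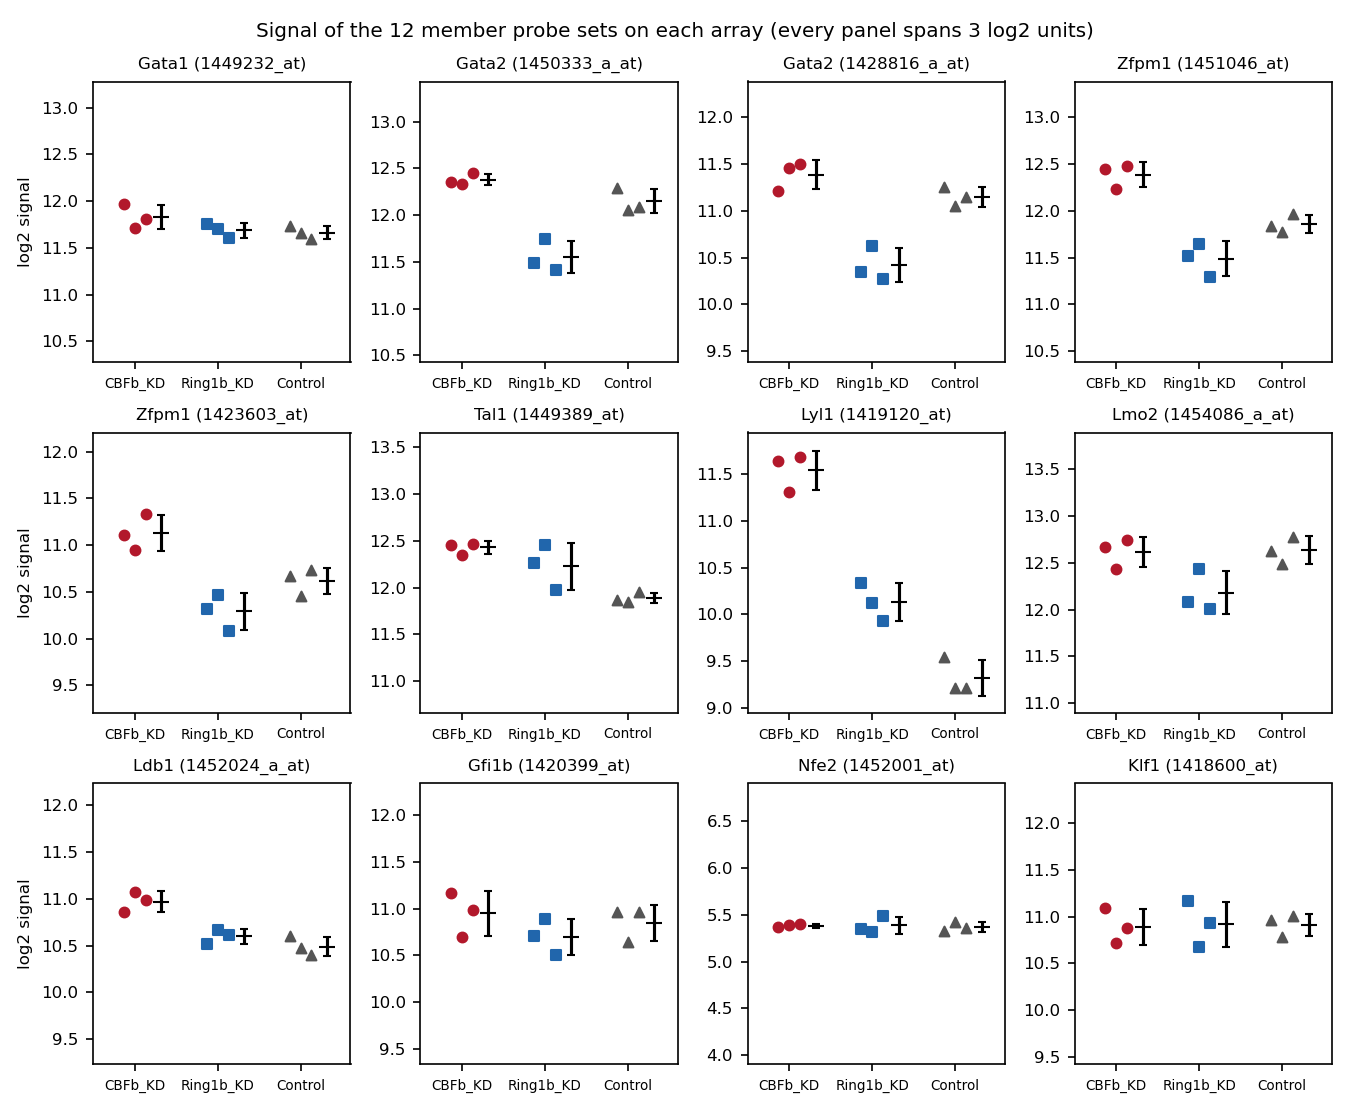
Log2 signal (vertical axis) of the 12 probe sets in each of the 9 arrays, with the group mean and its SD (n = 3) as a dash with whiskers beside the points; every panel spans the same number of log2 units. Lyl1 falls into 3 separate levels, from 11.31 to 11.68 in CBFb_KD, 9.93 to 10.34 in Ring1b_KD and 9.21 to 9.54 in Control, while Nfe2 stays between 5.32 and 5.49.

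Lyl1 (chromosome 8, 84701423 to 84704716 on GRCm38.p6), which encodes a basic helix-loop-helix factor closely related to SCL, differed most. Its signal was 11.64, 11.31 and 11.68 on the CBFb_KD arrays, 10.34, 10.12 and 9.93 on the Ring1b_KD arrays, and 9.54, 9.21 and 9.21 on the Control arrays. The 3 groups did not overlap, with CBFb_KD on top and Control at the bottom. Relative to Control the log2 difference was 2.22 in CBFb_KD (SE 0.132, 95% interval 1.94 to 2.51, limma adjusted p = 2.62e-06) and 0.81 in Ring1b_KD (SE 0.132, 0.52 to 1.10, limma adjusted p = 0.00315). The CBFb_KD level also exceeded the Ring1b_KD level, by 1.41 (limma adjusted p = 3.91e-05), a 2.66-fold difference. All 3 Lyl1 calls held under each of the alternatives tried and without any 1 array.

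Tal1 (chromosome 4, 115056426 to 115071755), the gene of SCL itself, had signals of 12.46, 12.35 and 12.47 in CBFb_KD, 12.26, 12.46 and 11.97 in Ring1b_KD, and 11.87, 11.85 and 11.95 in Control. Every knockdown array lay above every Control array, and the knockdowns overlapped each other. The difference from Control was 0.54 in CBFb_KD (SE 0.102, limma adjusted p = 0.0054) and 0.34 in Ring1b_KD, which missed the threshold (limma adjusted p = 0.0616). With each array left out in turn, the Ring1b_KD value ran from 0.22 to 0.47, and it was called without Ring1b_KD array 3 (0.47, limma adjusted p = 0.00563). It also passed with 1 probe set per gene in the fit (limma adjusted p = 0.046) or without dim probe sets (limma adjusted p = 0.0404). The knockdowns differed by 0.20 with a 95% interval of -0.03 to 0.42 (limma adjusted p = 0.25), a difference that was called without Ring1b_KD array 2 (0.31, limma adjusted p = 0.0476).

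Of the genes of the bridging proteins, Ldb1 was called in CBFb_KD and Lmo2 in Ring1b_KD. Ldb1 (chromosome 19, 46031525 to 46048145), which encodes the dimerizing LIM domain-binding protein, had 10.86, 11.07 and 10.99 in CBFb_KD, 10.52, 10.67 and 10.61 in Ring1b_KD, and 10.60, 10.47 and 10.40 in Control. Its CBFb_KD arrays were above all others, and the Ring1b_KD and Control arrays overlapped. It rose by 0.48 in CBFb_KD (SE 0.0837, limma adjusted p = 0.00311) and had a difference of 0.11 in Ring1b_KD (95% interval -0.07 to 0.29, limma adjusted p = 0.48). The knockdowns differed by 0.37 (limma adjusted p = 0.0111). Lmo2 (chromosome 2, 103957903 to 103981878), which encodes the LIM-only adaptor, had 12.67, 12.44 and 12.74 in CBFb_KD, 12.08, 12.44 and 12.01 in Ring1b_KD, and 12.63, 12.49 and 12.78 in Control. Here the Ring1b_KD arrays were the low ones, with array 2 close to the other groups. Lmo2 fell by 0.46 on the log2 scale in Ring1b_KD (SE 0.117, limma adjusted p = 0.0312) and had a difference of -0.02 in CBFb_KD (95% interval -0.27 to 0.24). The Ring1b_KD call was lost without Control array 1 or 3 or Ring1b_KD array 1 or 3 (limma adjusted p between 0.0795 and 0.134). The difference between the knockdowns was 0.44 (limma adjusted p = 0.026), and it lost its call without CBFb_KD array 1 or 3 or Ring1b_KD array 1 or 3 (0.0641 to 0.107) and with only the 2 groups in the fit (0.0522).

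Among the GATA factors, Gata2 (chromosome 6, 88193891 to 88207032) moved and Gata1 (chromosome X, 7959260 to 7976663) was not called. On its first probe set Gata2 had 12.35, 12.33 and 12.45 in CBFb_KD, 11.49, 11.74 and 11.41 in Ring1b_KD, and 12.29, 12.05 and 12.09 in Control. On its second probe set it had 11.21, 11.46 and 11.50 in CBFb_KD, 10.35, 10.62 and 10.27 in Ring1b_KD, and 11.26, 11.05 and 11.15 in Control. On both probe sets the Ring1b_KD arrays lay below all others. The fall in Ring1b_KD was of 0.60 (SE 0.0926, limma adjusted p = 0.00242) and 0.74 (SE 0.107, limma adjusted p = 0.00159) on the log2 scale. In CBFb_KD the differences of 0.23 and 0.24 missed the threshold (limma adjusted p = 0.17 and 0.24). The direct difference between the knockdowns was 0.83 on the first probe set (limma adjusted p = 0.000131) and 0.98 on the second (limma adjusted p = 0.000117). The called Gata2 differences kept their calls in every alternative in which they were fitted.

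Gata1 had 11.97, 11.71 and 11.81 in CBFb_KD, 11.76, 11.70 and 11.61 in Ring1b_KD, and 11.73, 11.66 and 11.59 in Control. The groups overlapped, and its 9 values spanned 0.38. The difference from Control was 0.17 in CBFb_KD (95% interval 0.00 to 0.34, limma adjusted p = 0.254) and 0.03 in Ring1b_KD (-0.14 to 0.21, limma adjusted p = 0.855). Those intervals exclude a change of either sign as large as the fall of Gata2 in Ring1b_KD. Under median centring of the arrays, the Gata1 level of CBFb_KD exceeded that of Ring1b_KD by 0.31 (limma adjusted p = 0.0362), against 0.14 after quantile normalization (limma adjusted p = 0.298).

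Zfpm1 (chromosome 8, 122281856 to 122337862), the gene of the GATA1 cofactor FOG1, was called in opposite directions on 1 of its 2 probe sets, the first. On its first probe set it had 12.45, 12.23 and 12.48 in CBFb_KD, 11.52, 11.65 and 11.29 in Ring1b_KD, and 11.84, 11.77 and 11.97 in Control. The 3 groups did not overlap, with Control between the knockdowns. On its second probe set it had 11.11, 10.95 and 11.33 in CBFb_KD, 10.32, 10.47 and 10.08 in Ring1b_KD, and 10.67, 10.46 and 10.73 in Control, where Ring1b_KD array 2 and Control array 2 met. Zfpm1 rose in CBFb_KD by 0.53 (SE 0.1, limma adjusted p = 0.00516) and 0.51 (SE 0.12, limma adjusted p = 0.0181). In Ring1b_KD the differences were -0.37 (limma adjusted p = 0.0401), called, and -0.34 (limma adjusted p = 0.114), not called. The Ring1b_KD call on the first probe set was fragile, since leaving out any 1 Control array, Ring1b_KD array 1 or 3, or CBFb_KD array 3 gave adjusted p-values of 0.0542 to 0.159. It was also lost with the mean of the gene's probe sets (-0.35, limma adjusted p = 0.0652) and with eBayes without an intensity trend (-0.37, limma adjusted p = 0.0505). On the second probe set the CBFb_KD call was lost without CBFb_KD array 3 (0.41, limma adjusted p = 0.085) or Control array 2 (0.43, limma adjusted p = 0.0877), and the Ring1b_KD difference passed as deposited (-0.45, limma adjusted p = 0.0411) or with median centring (-0.53, limma adjusted p = 0.0203). The direct difference between the knockdowns was 0.90 (limma adjusted p = 0.000128) and 0.84 (limma adjusted p = 0.000686), a 1.87- and 1.79-fold higher level in CBFb_KD.

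Gfi1b, Klf1 and Nfe2 were not called in any of the 3 comparisons. Gfi1b (chromosome 2, 28609450 to 28621982), the repressor of the group, had 11.17, 10.70 and 10.99 in CBFb_KD, 10.71, 10.89 and 10.51 in Ring1b_KD, and 10.97, 10.64 and 10.96 in Control. Its difference from Control was 0.10 in CBFb_KD (95% interval -0.19 to 0.39) and -0.15 in Ring1b_KD (-0.44 to 0.14). Median centring gave a CBFb_KD level above that of Ring1b_KD by 0.44 (limma adjusted p = 0.038), where the value after quantile normalization was 0.25 (limma adjusted p = 0.265). Klf1 (chromosome 8, 84901982 to 84905291), the red cell activator, had 11.09, 10.72 and 10.88 in CBFb_KD, 11.17, 10.68 and 10.93 in Ring1b_KD, and 10.96, 10.78 and 11.01 in Control. Its intervals were -0.29 to 0.25 in CBFb_KD and -0.26 to 0.28 in Ring1b_KD, so a change in Klf1 as large as that of Tal1 in CBFb_KD lay outside them. Nfe2 (chromosome 15, 103248212 to 103258403), the late platelet gene activator, was at 5.32 to 5.49 on all 9 arrays, below the median of all probe set means. Its single probe set was dim in all 3 groups, and its 95% intervals were -0.14 to 0.17 in CBFb_KD and -0.14 to 0.18 in Ring1b_KD.

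**Figure D2:**
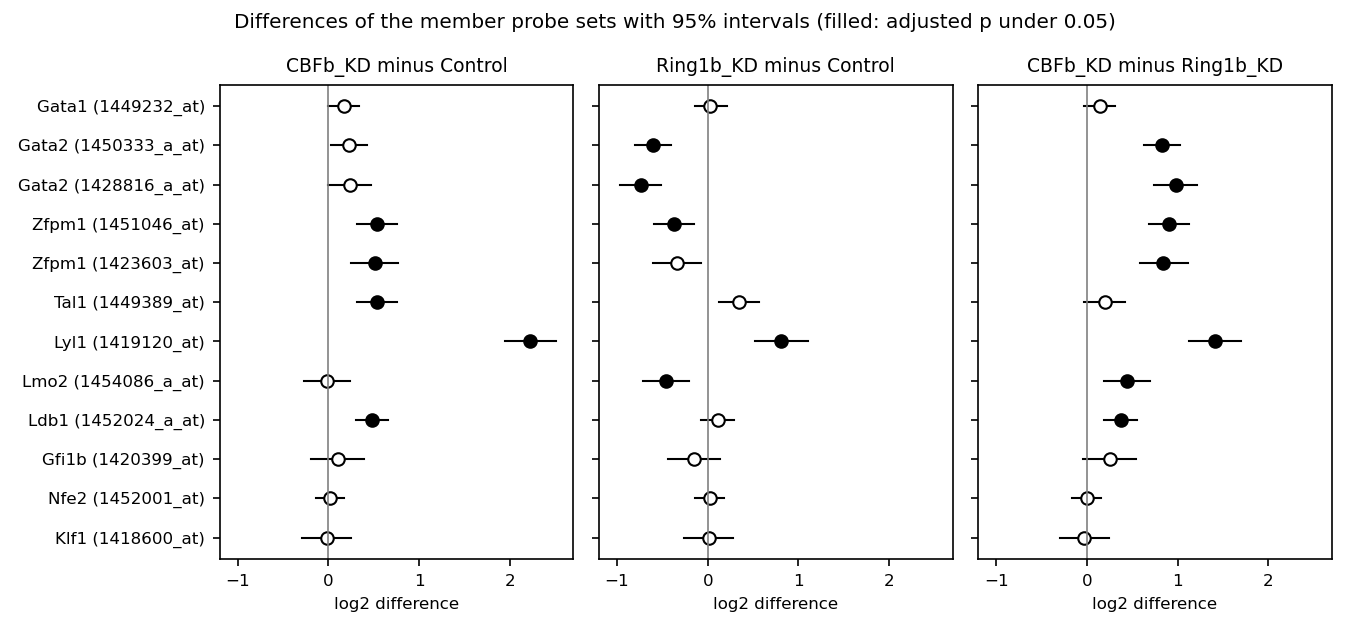
Log2 differences (horizontal axis) of the 12 probe sets, named down the page, in CBFb_KD minus Control, Ring1b_KD minus Control and CBFb_KD minus Ring1b_KD, with 95% intervals from the limma fit; filled points were called. In the right-hand panel the called points run from 0.37 for Ldb1 to 1.41 for Lyl1, all higher in CBFb_KD, and Gata1, Tal1, Gfi1b, Nfe2 and Klf1 are open.

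Partners of the SCL complex that are not among the 10 genes were listed separately, with each gene represented by its brightest probe set. Of 17 measured, 3 fell in Ring1b_KD, and 1 rose in CBFb_KD, where 10.1% and 12.8% of all 18193 genes were called. In Ring1b_KD 4.54% of all genes were called higher and 5.54% lower. Tcf3, which encodes the E proteins E12 and E47, had 9.64, 9.49 and 9.51 in CBFb_KD, 8.35, 8.59 and 8.55 in Ring1b_KD, and 9.60, 9.48 and 9.64 in Control. It fell 2.11-fold in Ring1b_KD (log2 difference -1.08, SE 0.091, limma adjusted p = 5.64e-05), and both of its other probe sets were called lower too. Tcf12, another E protein gene, was not called on its brightest probe set, with differences of -0.01 in CBFb_KD and 0.09 in Ring1b_KD. For Tcf4, the remaining E protein gene, the probe sets disagreed. Its brightest had 0.38 in CBFb_KD (limma adjusted p = 0.0738) and -0.28 in Ring1b_KD (limma adjusted p = 0.192), and the first of these was called under 7 alternatives, among them without Ring1b_KD array 2 (0.0247) or 3 (0.0142), while the second was called under median centring (-0.46, limma adjusted p = 0.0404) and without Ring1b_KD array 2 (-0.43, limma adjusted p = 0.0389). Of its other 5 probe sets 3 were called higher in CBFb_KD, at 0.39 to 0.43. In Ring1b_KD 1 of the 5 was called higher, at 0.56 (limma adjusted p = 0.00481), and 1 lower, at -0.39 (limma adjusted p = 0.0302), so no direction is given for Tcf4 there.

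Ssbp3, which encodes a single-stranded DNA-binding protein that stabilizes LDB1, had 10.34, 10.51 and 10.74 in CBFb_KD, 9.69, 9.80 and 9.63 in Ring1b_KD, and 10.30, 10.29 and 10.42 in Control. It fell in Ring1b_KD by 0.63 on the log2 scale (SE 0.102, limma adjusted p = 0.00314). Id1, which encodes an inhibitor that binds E proteins and keeps them off DNA, had 9.19, 8.86 and 8.82 in CBFb_KD, 8.38, 8.07 and 7.88 in Ring1b_KD, and 9.15, 9.17 and 9.0 in Control, and fell in Ring1b_KD by 1.00 (SE 0.133, limma adjusted p = 0.000967). Tcf3, Ssbp3 and Id1 also each stood above Ring1b_KD on the CBFb_KD arrays, by 1.05 (limma adjusted p = 2.49e-05), 0.82 (0.000263) and 0.85 (0.00127). In that direct comparison 5 of the 17 were called, all higher in CBFb_KD, against 16.5% of all genes, 8.92% higher and 7.54% lower. The median over the 17 was -0.07, beside -0.02 over all genes. Tcf4 was among the 5, at 0.67 (limma adjusted p = 0.00353), and 1 of its other 5 probe sets was called higher too. The member called in CBFb_KD against Control was Irf2bp2, a corepressor partner of the ETO2 complex, at 0.52 (limma adjusted p = 0.0481), a call lost in 12 of the alternatives, among them the values as deposited and the omission of CBFb_KD array 2 or 3, Control array 1 or 3 or any 1 Ring1b_KD array. Of its other 3 probe sets, 2 were called higher, at 0.59 (limma adjusted p = 0.00487) and 0.51 (limma adjusted p = 0.0414). Under median centring 5 partners were called lower in Ring1b_KD.

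**Figure D3:**
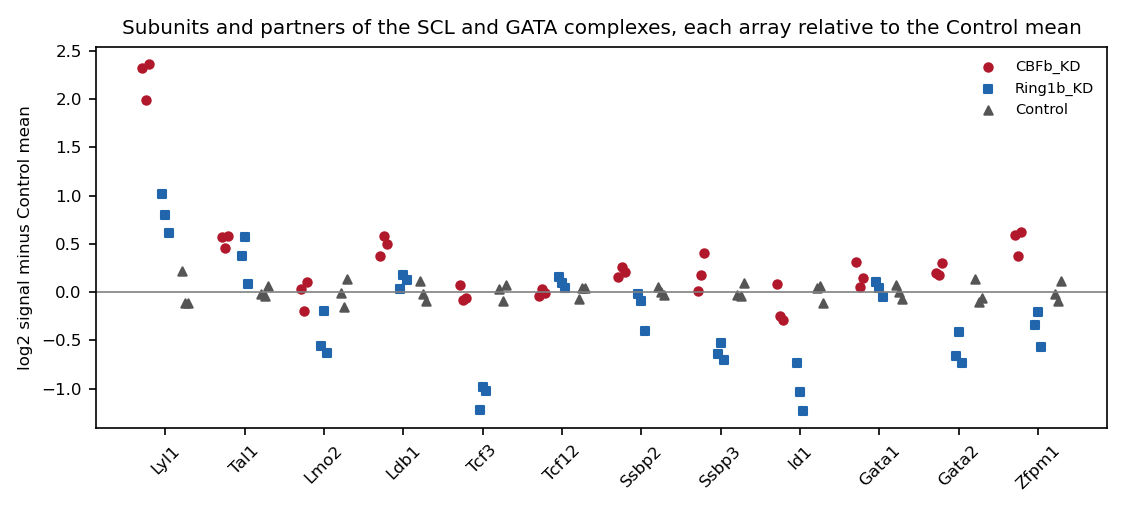
Log2 signal of each array minus the Control mean (vertical axis) for 12 genes of the SCL and GATA complexes on their brightest probe sets, chosen after their values were seen. Circles are CBFb_KD, squares Ring1b_KD and triangles Control; Lyl1 stands highest in CBFb_KD, and Tcf3, Id1, Gata2, Zfpm1 and Ssbp3 have all 3 Ring1b_KD arrays below all other arrays.

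Of 21 other GATA, FOG and GFI1 family genes and subunits of the CoREST and NuRD corepressors, 2 rose and 3 fell in CBFb_KD, and 1 rose and 2 fell in Ring1b_KD, with medians of -0.06 and -0.05. Over all genes 12.8% were called in CBFb_KD and 10.1% in Ring1b_KD, and the Ring1b_KD count of 3 is near that share. Kdm1a, the demethylase that GFI1B recruits, fell by 0.40 in CBFb_KD (limma adjusted p = 0.0232), and Mbd2, a methyl-DNA-binding NuRD subunit, rose by 0.78 (limma adjusted p = 0.00258). Mbd3, the alternative NuRD subunit, fell in both knockdowns, by 0.35 in CBFb_KD (limma adjusted p = 0.0306) and 0.42 in Ring1b_KD (limma adjusted p = 0.015), and the 2 values share the Control arrays. The Kdm1a call was lost when CBFb_KD array 2 or 3 or Control array 2 or 3 was left out, and so was the CBFb_KD call of Mbd3, which was lost without Control array 1 too. The Ring1b_KD call of Mbd3 was lost without Control array 3 or Ring1b_KD array 2. Hdac2, a deacetylase of both complexes, fell by 0.52 in Ring1b_KD (limma adjusted p = 0.00452), while Hdac1 rose by 0.35 (limma adjusted p = 0.0104) but not as deposited (0.25, limma adjusted p = 0.0786) or with median centring (0.16, limma adjusted p = 0.331). The CBFb_KD count of 5 was 1 without CBFb_KD array 2 or Control array 3, and 2 without CBFb_KD array 3 or Control array 1 or 2.

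Of 8 NFE2 partners and relatives 1 was called in each knockdown, near the 12.8% of all genes called in CBFb_KD and 10.1% in Ring1b_KD. It was Nfe2l2, which encodes the oxidative stress factor NRF2, at 0.47 in CBFb_KD (limma adjusted p = 0.0475) and 0.49 in Ring1b_KD (limma adjusted p = 0.0467). Both calls were lost without Control array 1 or 3, as deposited, or with the mean of its probe sets. The CBFb_KD call was lost as well without CBFb_KD array 2 or 3 or Ring1b_KD array 2, and the Ring1b_KD call without CBFb_KD array 3 or Ring1b_KD array 1 or 2. The small MAF genes Mafg, Mafk and Maff had differences of -0.18 to 0.16 and were not called. Of 14 other Krüppel-like factors 1 fell in CBFb_KD, where 12.8% of all genes were called, and 1 rose and 2 fell in Ring1b_KD, where 10.1% were. Klf5 fell by 0.89 in CBFb_KD (limma adjusted p = 0.000319) and 0.54 in Ring1b_KD (limma adjusted p = 0.00861) on its brightest probe set, and neither of its other 2 probe sets was called against Control. Klf10, an early response factor to TGF-beta, fell by 0.46 in Ring1b_KD (limma adjusted p = 0.0271) and differed between the knockdowns, with CBFb_KD above Ring1b_KD by 0.72 (limma adjusted p = 0.00118). The first Klf10 call was lost without Control array 2 or 3 or Ring1b_KD array 2 or 3. Klf3, a repressor that binds the same sites as KLF1, rose by 0.51 in Ring1b_KD (limma adjusted p = 0.0221), a call lost as deposited, with median centring, and without Control array 1 or 3 or any 1 Ring1b_KD array. Of its other 6 probe sets 3 were also called higher in Ring1b_KD, at 1.07 (limma adjusted p = 0.0165), 1.14 (limma adjusted p = 0.00334) and 0.69 (limma adjusted p = 0.00173). The CBFb_KD count of this family was 2 once Control array 1 or 2, or CBFb_KD array 1, was left out, and without Control array 3 or Ring1b_KD array 2 or 3 the Ring1b_KD count was 1.

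Of 18 measured red cell targets of GATA1 and KLF1, 12 rose and 1 fell in CBFb_KD with a median of 0.53, where 6.62% of all genes rose, 6.19% fell and the median was -0.01. In Ring1b_KD 1 rose and 2 fell, with a median of 0.03, where 4.54% of all genes rose and 5.54% fell. Epor, the erythropoietin receptor gene, had 11.56, 11.32 and 11.38 in CBFb_KD, 11.11, 10.92 and 10.92 in Ring1b_KD, and 11.04, 10.78 and 10.78 in Control. It rose in CBFb_KD by 0.55 (limma adjusted p = 0.00319), and Ring1b_KD and Control overlapped. Alas2, Epb42 and Ank1 rose more in CBFb_KD, by 1.61, 1.10 and 0.79 (limma adjusted p = 0.00082, 0.000772 and 0.000127). Bcl11a, which encodes a globin-switching repressor known to be activated by KLF1, was the member that fell, with 8.71, 8.68 and 8.36 in CBFb_KD, 9.41, 8.94 and 9.59 in Ring1b_KD, and 9.80, 9.75 and 9.69 in Control (log2 difference in CBFb_KD -1.16, limma adjusted p = 0.000496). Trim10, a gene needed for terminal red cell differentiation, rose by 0.51 in CBFb_KD (limma adjusted p = 0.00524) and exceeded its Ring1b_KD level by 0.82 (limma adjusted p = 0.000202). Dmtn, the actin-bundling dematin gene, fell by 0.79 in Ring1b_KD (limma adjusted p = 0.000929) on its brightest probe set, with neither of 2 others called, and Ermap, a red cell membrane gene, fell by 0.59 (limma adjusted p = 0.00875). Between the knockdowns 12 of the 18 were higher in CBFb_KD and 1 was lower, where 8.92% of all genes were called higher and 7.54% lower. Of 7 red cell markers 4 were measured, all of them also among the 18 targets above. Hba-a1 and Slc4a1, the alpha globin and anion exchanger genes, were below the median probe set on every array. The summed log2 signal of the 4, which is almost all Epor, was 11.50 to 11.71 in CBFb_KD, 11.04 to 11.23 in Ring1b_KD and 10.91 to 11.15 in Control. In bulk RNA, a change in the share of cells of a type and a change in RNA per cell cannot be told apart.

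Of 14 measured megakaryocyte targets of GATA1 and NFE2, 6 rose and 0 fell in CBFb_KD (median 0.35), and 1 rose and 1 fell in Ring1b_KD (median -0.05). Over all genes 6.62% rose and 6.19% fell in CBFb_KD, and 10.1% were called in Ring1b_KD, a share near that of these targets. Rab27b, a granule transport gene named among NFE2 targets, rose in both knockdowns, by 1.37 in CBFb_KD (limma adjusted p = 0.00102) and 1.16 in Ring1b_KD (limma adjusted p = 0.00394). Tubb1 and Tbxas1, the beta-1 tubulin and thromboxane synthase genes that are classical NFE2 targets, were not called, with differences of 0.16 and -0.01 in CBFb_KD and of 0.04 and -0.05 in Ring1b_KD. The platelet glycoprotein genes Gp9 and Gp5 rose in CBFb_KD and had differences of -0.11 and 0.04 in Ring1b_KD. Vwf fell by 0.75 in Ring1b_KD (limma adjusted p = 0.0324), at a level below the median probe set, and lost that call without Control array 1 or 2 or any 1 Ring1b_KD array.

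**Figure D4:**
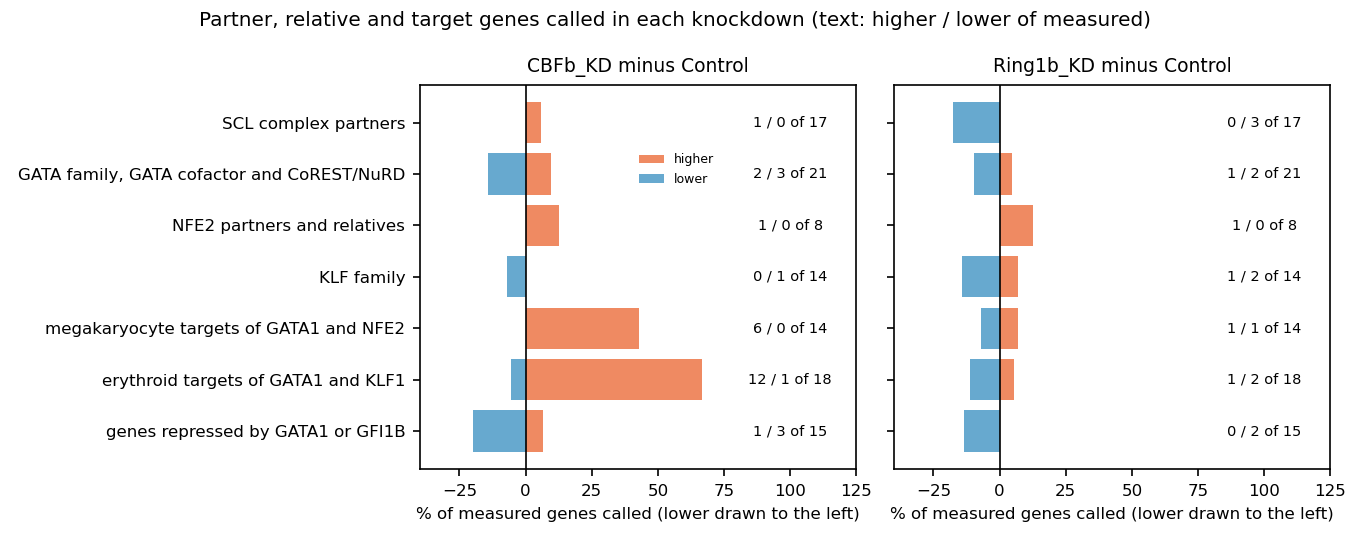
Percentage of the measured genes of each list (horizontal axis) called higher, drawn to the right, or lower, drawn to the left, in CBFb_KD minus Control and Ring1b_KD minus Control; the printed counts are higher and lower of measured. The red cell target list, of 18, has 12 higher and 1 lower in CBFb_KD and 1 higher and 2 lower in Ring1b_KD. The SCL partner list has 3 lower of 17 in Ring1b_KD. Over all genes 6.62% were higher and 6.19% lower in CBFb_KD, and 4.54% higher and 5.54% lower in Ring1b_KD.

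Among 15 genes described as repressed by GATA1 or GFI1B, 1 rose and 3 fell in CBFb_KD, and 0 rose and 2 fell in Ring1b_KD, with medians of -0.06 and -0.05. The shares of all genes called were 12.8% in CBFb_KD and 10.1% in Ring1b_KD, and the Ring1b_KD count is near its share. Cdk6, a cyclin D kinase gene, fell by 1.20 in CBFb_KD (limma adjusted p = 1.54e-06) and 0.40 in Ring1b_KD (limma adjusted p = 0.00324), and was lower in CBFb_KD than in Ring1b_KD by a log2 difference of -0.80 (limma adjusted p = 1.7e-05). Myc fell by 0.74 in CBFb_KD and 0.46 in Ring1b_KD (limma adjusted p = 0.000151 and 0.00414), and Myb, another progenitor factor gene, fell by 0.43 in CBFb_KD (limma adjusted p = 0.0382) on its brightest probe set. That call was lost in 9 alternatives, including the omission of CBFb_KD array 1, any 1 Control array, or Ring1b_KD array 1 or 2, and without CBFb_KD array 2 the difference was -0.27 (limma adjusted p = 0.0993). Both other Myb probe sets were called lower in CBFb_KD, at -0.65 (limma adjusted p = 0.00588) and -0.49 (limma adjusted p = 0.0264). Bcl2l1, the survival gene encoding BCL-XL, rose by 0.86 in CBFb_KD (limma adjusted p = 0.000317). Kit, a receptor gene bound by both GATA factors, was lower in CBFb_KD than in Ring1b_KD by a log2 difference of -0.74 (limma adjusted p = 0.00133). Over the 7 lists of partners, relatives and targets, 105 genes in all, 23 rose and 8 fell in CBFb_KD, where 12.8% of all genes were called, and 20 in all were called without CBFb_KD array 2 or Control array 3. In Ring1b_KD 5 rose and 12 fell, where 10.1% of all genes were called, a split of 1 and 16 as deposited and 1 and 21 with median centring. Between the knockdowns 26 were higher in CBFb_KD and 7 lower, where 16.5% of all genes were called, against 32 and 4 as deposited and 33 and 3 with median centring.

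Markers of other blood lineages were read in the same fit, in which 12.8% of all genes were called in CBFb_KD and 10.1% in Ring1b_KD. Of 10 measured granulocyte and monocyte markers 1 rose in CBFb_KD and 1 fell in Ring1b_KD. Of 8 mast cell markers, a lineage that depends on GATA2, 1 rose and 1 fell in CBFb_KD, and 2 rose and 1 fell in Ring1b_KD. Hdc, the histidine decarboxylase gene that makes histamine, rose by 1.11 in CBFb_KD (limma adjusted p = 0.0153) and 0.99 in Ring1b_KD (limma adjusted p = 0.0342), and its other probe set was called higher in both, at 2.17 and 1.90. On the first of these probe sets the CBFb_KD call was lost without Control array 2 or 3, and the Ring1b_KD call without any 1 Control or Ring1b_KD array. Fcer1a, the IgE receptor alpha chain gene, rose by 1.61 in Ring1b_KD (limma adjusted p = 0.00777), from a Control mean of 5.98, below the median probe set. Ms4a2, the beta chain gene of that receptor, fell by 1.92 in CBFb_KD (limma adjusted p = 0.000399) and 1.49 in Ring1b_KD (limma adjusted p = 0.00282). Its other probe set was called lower in CBFb_KD (-1.06, limma adjusted p = 0.0259) but not in Ring1b_KD (-0.66, limma adjusted p = 0.163). The summed log2 signal of the mast cell list was 11.70 to 11.77 in CBFb_KD, 11.26 to 11.87 in Ring1b_KD and 10.96 to 11.68 in Control, with Mcpt8 and Mcpt4, both protease genes, below the median probe set on every array. Of 6 lymphoid markers 1 fell in Ring1b_KD, Nkg7, a cytotoxic granule gene, by 1.00 (limma adjusted p = 0.00334). The part of these lineages in the results above was not tested.

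Genes with patterns most like those of the 3 members with the smallest F test p were sought among 3965 other called genes, by the root mean square difference of the 9 array values, each relative to its own Control mean. Closest to Lyl1 were Cpeb4, an RNA-binding protein gene, at 0.226 log2 units, Prdm1, the gene of the repressor BLIMP1, at 0.327, and Pdzk1ip1, a small membrane protein gene, at 0.335. Their differences in CBFb_KD were 2.25, 1.90 and 1.88, and in Ring1b_KD 0.89, 0.86 and 0.46. Closest to Gata2 were Zcchc2 (0.0903), Fam168b (0.0943) and Ppm1b (0.103), each with 0.23 to 0.31 in CBFb_KD and -0.49 to -0.56 in Ring1b_KD. Closest to Zfpm1 were Iah1 (0.0672), Etfb (0.0936) and Tmem40 (0.097), with 0.45 to 0.57 in CBFb_KD and -0.34 to -0.39 in Ring1b_KD.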

How the data were processed

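Per the labels' protocols, cDNA primed with oligo-dT carrying a T7 site was transcribed in vitro with biotinylated nucleotides. The deposited values, 3.227 to 15.355 over 45101 probe sets, are on a log2 scale as judged from their range; how the authors summarised and normalized them is not stated by any label or header read here. Array medians ran from 6.513 to 6.651, highest in Ring1b_KD, so the log2 values were quantile normalized after 64 control probe sets were left out. Platform annotation gave 34945 probe sets 1 symbol, 932 several and 9160 none. A group-means model of all 9 arrays was fitted by limma 3.58.1 under R 4.3.3, using eBayes with an intensity trend, and its two-sided tests were corrected (Benjamini-Hochberg) across 45037 probe sets; genes of lists were read from their brightest probe set in that fit. The fit was tested on simulated data. All members, Cbfb and Rnf2, and the 3 nearest patterns of 3 members were named. From each list and comparison, up to 4 called genes by smallest adjusted p could be named, and not all of them were. Tcf12, the small MAF genes, Tubb1, Tbxas1, Tcf4 against Control, second probe sets, and genes beyond that rule were named after their values were seen. Members and lists were chosen with earlier results of these data known. The number of arrays limits the precision. Alternatives covered normalization, variance model, features, dim probe sets, groups fitted, a replicate block and each array left out.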

Additional observations from a re-analysis of the deposited data

How the results depend on the processing

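No called difference of the 12 probe sets changed sign under any alternative. Of 609 values recomputed, 582 stayed on the same side of the threshold, 19 lost and 8 gained a call, and 26 uncalled values took the other sign. For the other named genes 2977 of 3231 values stayed, 181 lost and 73 gained a call. With each array left out in turn, the count of called probe sets was 4 to 5 in CBFb_KD, 3 to 5 in Ring1b_KD, 6 to 8 between the knockdowns and 7 to 8 by the F test, and that of list genes 20 to 33, 13 to 18 and 28 to 35. The titles share replicate numbers without saying what they mark. Deviations of same-numbered arrays of different groups correlated at -0.145 to 0.281, with 4 of 9 pairs over 0.1. Those of different-numbered arrays correlated at -0.267 to 0.148. The numbers were not taken as pairs in the main fit. With the replicate number as a block 5, 5, 7 and 8 probe sets were called, as without it, and 33, 20 and 38 list genes against 31, 17 and 33. The causes of lost or gained calls were not tested. Nfe2 and Vwf lay below the median probe set on every array, and no measure of background was used here to set their signal against.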

Other observations

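The genes that flank the 10 members on the chromosome were looked up after the main results were known. On each side the nearest protein-coding gene with a probe set of 1 symbol was taken, and genes overlapping a member were left out. Of 20 such neighbours, 2 were higher and 2 lower in CBFb_KD, and the same numbers held in Ring1b_KD, where over all genes 12.8% were called in CBFb_KD and 10.1% in Ring1b_KD. Pdzk1ip1, a small membrane protein gene 17.0 kb beyond Tal1 on chromosome 4 in the GRCm38.p6 annotation, had 10.97 ± 0.14 in CBFb_KD, 9.55 ± 0.14 in Ring1b_KD and 9.09 ± 0.22 in Control (SD, n = 3 each). It rose by 1.88 in CBFb_KD (limma adjusted p = 4.03e-06), where Tal1 itself rose by 0.54, and its other probe set was called higher too. In Ring1b_KD its difference was 0.46 (limma adjusted p = 0.0328), a call lost without Control array 2 or 3 or Ring1b_KD array 1 or 2 and in both other scalings. On the other side of Tal1, Stil, a centriole assembly gene, had 8.31 ± 0.07 in CBFb_KD, 8.79 ± 0.11 in Ring1b_KD and 8.68 ± 0.11 in Control (SD, n = 3 each), and fell by 0.37 in CBFb_KD (limma adjusted p = 0.021). That call was lost once Control array 2 or 3, or CBFb_KD array 2 or 3, was left out.

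Other called neighbours were Glod5, beside Gata1, at 0.97 in CBFb_KD (limma adjusted p = 0.0015) and 0.61 in Ring1b_KD (limma adjusted p = 0.0257), Pprc1, beside Ldb1, at -0.53 (limma adjusted p = 0.0111) and -0.44 (limma adjusted p = 0.0363), and Rpn1, beside Gata2, at -0.43 in Ring1b_KD (limma adjusted p = 0.00206). The Pprc1 calls were lost without CBFb_KD array 2 or Control array 3 in CBFb_KD, and without CBFb_KD array 3, any 1 Control array or Ring1b_KD array 1 or 2 in Ring1b_KD. The Ring1b_KD call of Glod5 was lost without Control array 2 or 3 or Ring1b_KD array 1 or 2. Neighbours of Lyl1 were not called, with Trmt1, 1.61 kb away, at -0.01 in CBFb_KD and 0.08 in Ring1b_KD. Dand5, 111.0 kb away on the other side, was at 0.31 in CBFb_KD (limma adjusted p = 0.0718) and 0.03 in Ring1b_KD.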
